A study of Mus musculus with 2 samples.

Results

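The FGF ligands Fgf15, Fgf3 and Fgf9 and 6 genes that ERK signalling switches on and that feed back on it, Spry1, Spry2, Spry4, Etv4, Etv5 and Dusp6, were followed through the cells of the mouse eye cup at e15.5. These 9 genes were taken by name from 31053 genes in the deposited matrices, and each matched a single gene. The data were 2 single-cell RNA-seq libraries, each of a different genotype. The control was Myrf fl/fl, with loxP sites in both Myrf alleles. The mutant, Rx>cre Myrf fl/fl, added a Cre driven by Rx in the early eye field, from which neural retina and RPE (retinal pigment epithelium) but not the mesenchyme around the eye arise. Eye cups freed of cornea, lens and optic nerve were pooled, 3 to a library, with 1 library per genotype. MYRF is a transcription factor made in the RPE, and the study asked how RPE development changes without it. With 1 library per genotype there was no replicate check and no test between genotypes, and the 95% intervals given here cover counting error only.

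FGF ligands bind receptor tyrosine kinases and activate a kinase cascade that ends in ERK. ERK activity induces the Sprouty genes, whose proteins inhibit the cascade, Dusp6, whose product is a phosphatase that inactivates ERK, and Etv4 and Etv5, ETS transcription factors that act downstream of FGF receptors. In the optic cup, FGF signalling is known to favour neural retina over RPE. Fgf15 is the mouse counterpart of human FGF19, and Fgf9 is a ligand made by the neural retina.

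Barcodes numbered 13017 in the control and 13880 in the mutant library, with medians of 9339 and 8702 UMIs (unique molecular identifiers, 1 for each captured transcript) per barcode. After filtering, 11518 control and 12576 mutant cells were clustered with the 9 genes kept out of the clustering. Cell classes were named "-like" from marker genes, so their membership need not match that used by the study. Myrf itself fell from 293 UMIs in control RPE-like cells to 55 in mutant ones, a mutant/control ratio of 0.377 (0.277–0.504). A UMI of Xist was found in 71.7% of control and 27.4% of mutant cells and a UMI of a Y-linked gene in 0.026% and 41.7%, so the pools differed in sex as well as genotype. The libraries shared 69 cell barcodes. Free RNA gives UMIs of a gene to cells that do not make it, and erythroid-like cells, which should lack all 9 genes, served as the measure of it. These were the 477 control and 420 mutant cells of 2 erythroid clusters. The remaining erythroid cluster, of 19 and 10 cells, was left out of the class because it scored second for progenitor markers, which summed to 1979 and 2074 CPM in it, and its Fgf15 stood at 781 and 717 CPM. With it, Fgf15 in erythroid-like cells would be 59.1 and 33.4 CPM in place of 4.33 and 6.61 CPM, above the control levels of the RPE-like and mesenchyme-like classes given below and above the mutant level of mesenchyme.

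The RPE-like class was a single cluster of 365 control and 200 mutant cells with medians of 6732 and 3587 UMIs. Its RPE markers summed to 17548 and 17044 CPM (UMIs of a gene per 1e+06 UMIs of the class). Progenitor-like cells numbered 3406 and 4629 and neurogenic progenitor-like cells 828 and 1156. Neuron-like cells, which pool ganglion, amacrine, horizontal and photoreceptor precursor cells, numbered 1172 and 1625. Mesenchyme-like cells, from the tissue around the eye, numbered 2967 and 2151.

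Fgf15 was highest in progenitor-like cells. Control progenitors stood at 1562 CPM (1547–1576) and mutant ones at 1727 CPM (1714–1740), and 78.3% and 84.7% of the cells held at least 1 UMI. The level in neurogenic progenitor-like cells was 197 and 229 CPM, so that control progenitors were 7.91-fold higher (7.55–8.30) and mutant progenitors 7.54-fold higher (7.27–7.84). Neuron-like cells had 40.4 and 67.6 CPM. RPE-like cells had 43.9 and 109.9 CPM, mesenchyme-like cells 8.85 and 32.0 CPM and erythroid-like cells 4.33 and 6.61 CPM. Both libraries therefore ranked progenitor-like cells far above every other class, and the lower ranks differed between libraries.

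Fgf3 was likewise highest in progenitors. Progenitor-like cells held 159 CPM (155–164) and 165 CPM (161–169), control first here and below, against 10.1 and 13.1 CPM in neurogenic progenitor-like cells. The step between these classes was 15.7-fold (12.8–19.5) in the control and 12.6-fold (10.8–14.8) in the mutant. From the neurogenic class down through amacrine and horizontal, endothelial, photoreceptor precursor, surface epithelium, immune, RPE, Schwann cell precursor and muscle classes, the counting intervals of neighbouring classes overlapped in both libraries. RPE-like cells held 26 and 12 UMIs in all.

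Fgf9 reached further into differentiated neurons. It stood at 159 CPM (154–163) and 162 CPM (158–166) in progenitor-like cells, at 53.9 and 58.0 CPM in neurogenic progenitor-like cells and at 36.5 and 45.5 CPM in retinal ganglion cell-like cells. The control ganglion cells carried 248 Fgf9 UMIs in 41.2% of 413 cells, and the 5 richest cells held 8.47% of them. Amacrine and horizontal cell-like cells had 40.2 and 36.3 CPM, and their intervals overlapped those of the ganglion cells in both libraries. Progenitors exceeded neuron-like cells 4.66-fold (4.22–5.16) in the control and 4.32-fold (3.98–4.69) in the mutant, a smaller step than that of Fgf15, at 38.7-fold (35.4–42.3) and 25.6-fold (24.1–27.1), or of Fgf3, at 37.7-fold (28.8–50.4) and 24.9-fold (20.7–30.2).

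**Figure D1:**
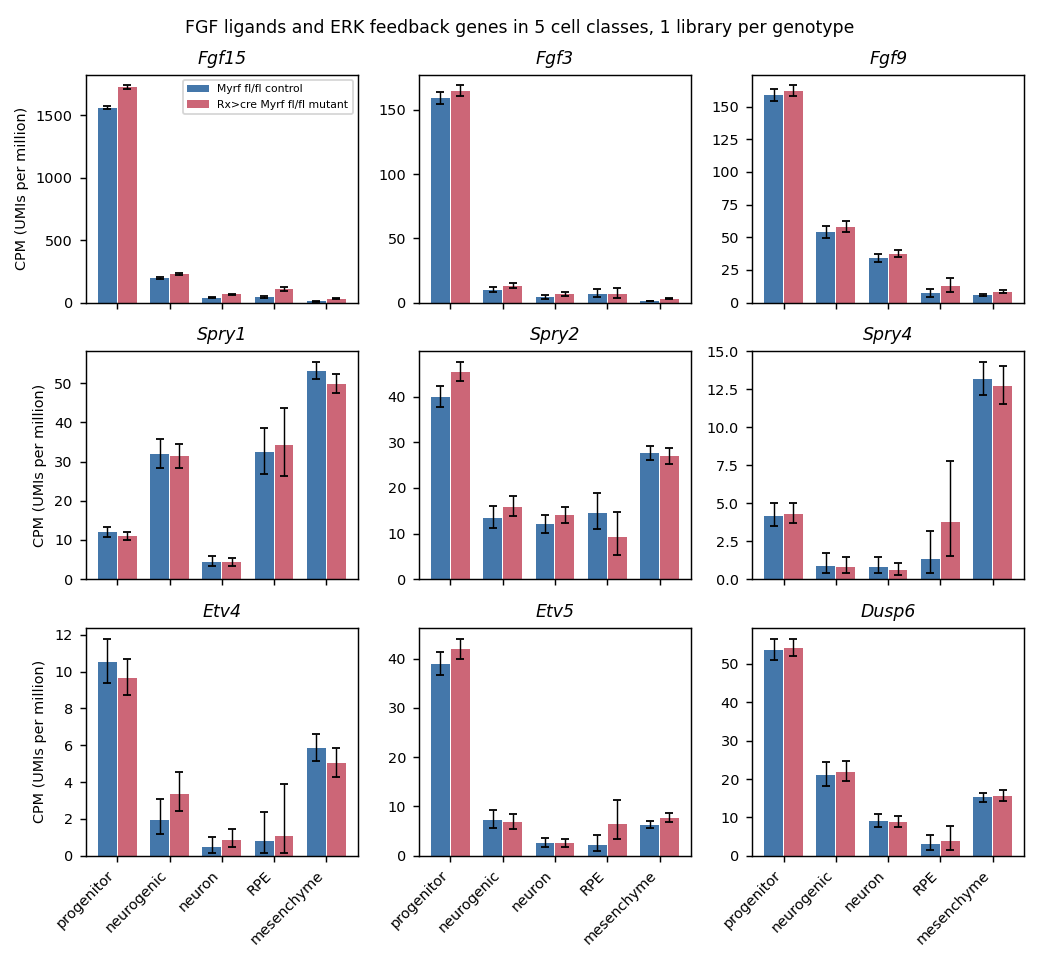
Bars give CPM of each gene in 5 cell classes of the Myrf fl/fl control and the Rx>cre Myrf fl/fl mutant, 1 library each, and error bars are exact 95% Poisson intervals for counting error. Of these 5 classes, progenitors are highest for every gene except Spry1 and Spry4, which are highest in mesenchyme.

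Fgf15 and Fgf3 are also neighbours in the genome. In GENCODE annotation of GRCm38, Fgf3 (ENSMUSG00000031074) lies on the plus strand of chromosome 7 from 144838083 to 144844436 and Fgf15 (ENSMUSG00000031073) on the same strand from 144896531 to 144900953, with 52094 bases between them. Fgf9 (ENSMUSG00000021974) lies on chromosome 14 from 58070547 to 58112720. Across 13 named classes, the Pearson r of log2(CPM + 10) between Fgf15 and Fgf3 was 0.91 in both libraries. The classes of a library share its depth and free RNA and the progenitor peak dominates both patterns, so this is a description.

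The ligands differed between progenitor-like clusters that were set apart by genes of different cell cycle phases. Fgf15 was 2339 and 2621 CPM in the deeper of the 2 clusters with replication histones among their leading genes, with a median of 9899 UMIs per cell, 1927 and 2090 CPM in that with Cenpf and Prc1, and 1281 and 1423 CPM in that with Ung and Cyp26a1. It was 1026 and 1019 CPM in the cluster with Cdc20 and Ccnb2. The lowest values, 357 and 399 CPM, came from the shallower histone cluster, with a median of 1481 UMIs per cell. Fgf3 had the same order of clusters, from 198 CPM in both libraries down to 74.7 and 73.9 CPM. Fgf9 was instead highest in the Cyp26a1 cluster, at 184 CPM (175–194) and 189 CPM (181–197), and in both libraries this interval overlapped that of the deeper histone cluster. In the shallower one Fgf9 was 45.7 and 40.4 CPM.

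All 3 neurogenic clusters lay below the 4 deeper progenitor clusters for each ligand, though for Fgf15 and Fgf9 not all of them lay below the shallow one. Fgf15 was 556 and 666 CPM in the cluster with Neurog2 and Mybl1, 188 and 185 CPM in that with Neurog2 and Olig2, and 88.1 and 87.5 CPM in that with Gal and Insm2. Over the same clusters Fgf3 went from 21.2 and 33.9 CPM to 4.89 and 5.47 CPM, and Fgf9 from 77.9 and 87.6 CPM to 41.7 and 50.5 CPM.

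**Figure D2:**
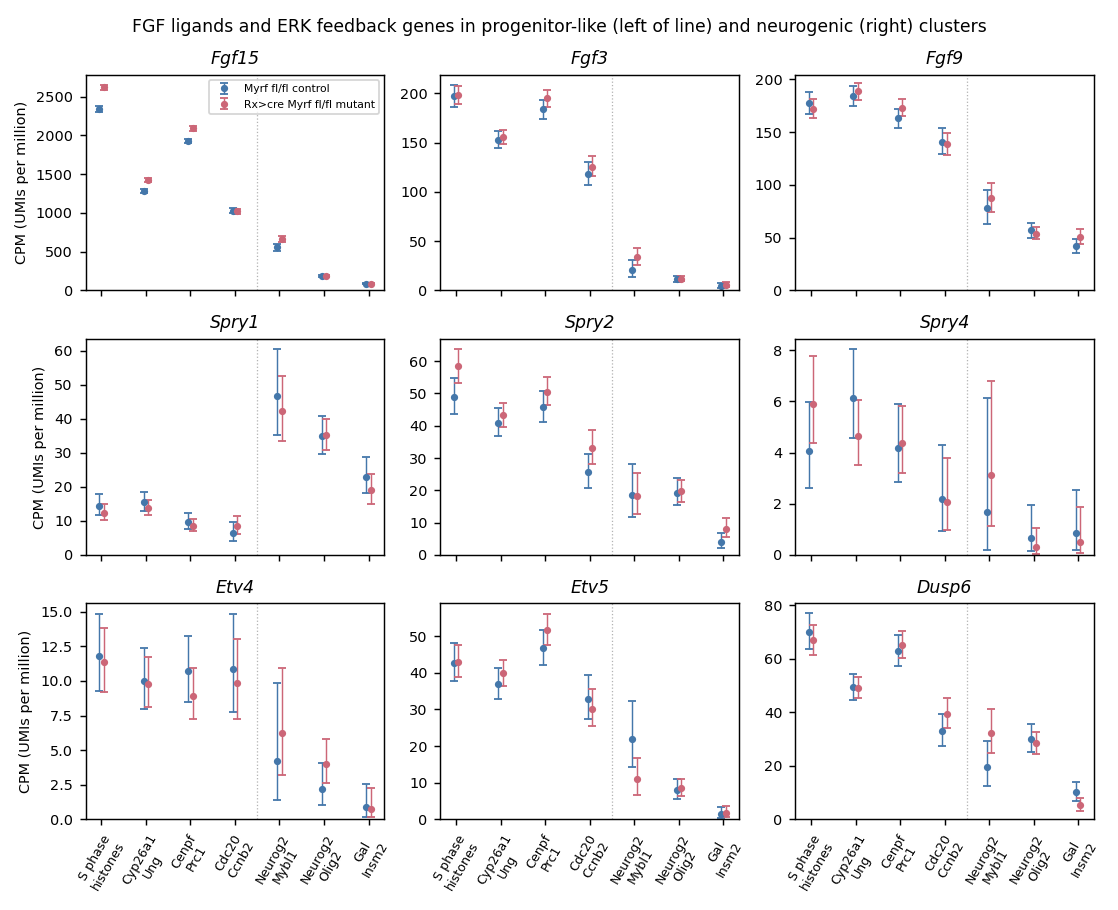
Points give CPM of each gene in 4 progenitor-like clusters (left of the dotted line) and 3 neurogenic progenitor-like clusters (right of it), named by leading genes, in control (blue) and mutant (red), with exact 95% Poisson intervals. The shallow progenitor-like cluster is left out. Fgf15, Fgf3, Spry2, Etv5 and Dusp6 are lower to the right of the line, and Spry1 is higher.

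The Sprouty genes did not share a pattern. Spry1 was lower in progenitors than in neurogenic progenitors. It stood at 11.9 CPM (10.7–13.3) and 10.9 CPM (9.93–12.0) in progenitor-like cells and at 31.9 CPM (28.3–35.8) and 31.3 CPM (28.3–34.6) in neurogenic ones, then at 4.46 and 4.31 CPM in neuron-like cells. Progenitors therefore held 0.374 (0.319–0.439) of the neurogenic level in the control and 0.349 (0.304–0.402) in the mutant. Within the neurogenic clusters Spry1 went from 46.6 and 42.2 CPM in the Mybl1 cluster to 23.0 and 19.0 CPM in the Gal cluster. The other 5 feedback genes were lower in neurogenic than in other progenitors, so Spry1 went the opposite way in both libraries.

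Outside the neural retina, Spry1 was high in mesenchyme-like cells, with 53.2 CPM (51.0–55.4) and 49.8 CPM (47.4–52.3), and in muscle-like cells, with 42.6 and 54.1 CPM. RPE-like cells held 32.3 CPM (26.8–38.7) and 34.1 CPM (26.2–43.6), from 120 UMIs in 22.2% of control cells and 63 UMIs in 19.5% of mutant cells. These levels overlapped those of neurogenic progenitor-like cells. The share of erythroid-like cells with a Spry1 UMI was 0.839% and 0.952%, with medians of 16830 and 16830.5 UMIs per cell.

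Spry2, like Spry1 an inhibitor of the cascade, was 40.01 CPM (37.7–42.4) and 45.5 CPM (43.4–47.6) in progenitor-like cells and 27.7 and 26.9 CPM in mesenchyme-like cells. Muscle-like cells held more, at 54.7 and 56.5 CPM. Neurogenic, neuron-like and RPE-like cells lay lower, between 9.20 and 15.9 CPM. Spry4 was 13.2 CPM (12.1–14.3) and 12.7 CPM (11.5–14.0) in mesenchyme-like cells and 27.2 and 23.1 CPM in endothelial-like cells, against 4.19 and 4.31 CPM in progenitors. Neuron-like cells held 10 Spry4 UMIs in each library and RPE-like cells 5 and 7.

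Within mesenchyme, Spry2 and Spry4 were highest in the cluster with Gas2, Fibin, Scx and Tnmd among its leading genes, of which Scx and Tnmd are tendon genes. Spry2 was 75.3 and 62.6 CPM there, against 5.63 and 5.65 CPM in the cluster with Matn4 and Kera. Spry4 was 30.4 and 23.7 CPM against 7.66 and 7.46 CPM. Etv4, at 17.7 and 13.5 CPM against 1.65 and 1.36 CPM, and Dusp6, at 38.8 and 26.8 CPM against 5.72 and 7.91 CPM, had the same order. Fgf8, a ligand outside the 9 genes, had 21 and 8 UMIs in the Scx cluster.

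Among the retinal and RPE classes, Etv4 and Etv5 were highest in progenitors. Etv5 was 39.0 CPM (36.7–41.3) and 42.0 CPM (40.0–44.1) in progenitor-like cells and 7.29 and 6.79 CPM in neurogenic ones, a step of 5.34-fold (4.17–6.94) and 6.18-fold (4.97–7.78). Neuron-like cells held 2.55 and 2.56 CPM. RPE-like cells held 8 and 12 UMIs, or 2.16 and 6.50 CPM. Etv5 was also present in immune-like cells, at 36.4 and 28.8 CPM. Etv4 was 10.5 CPM (9.38–11.8) and 9.67 CPM (8.72–10.7) in progenitors, and in RPE-like cells it had 3 and 2 UMIs, at or below the floor of 3 counts set for a level.

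Dusp6 was 53.7 CPM (51.1–56.5) and 54.3 CPM (52.0–56.6) in progenitor-like cells. It fell to 21.1 and 21.9 CPM in neurogenic progenitor-like cells and to 9.16 and 8.79 CPM in neuron-like cells. Endothelial-like cells, at 147 and 151 CPM, and immune-like cells, at 116 and 122 CPM, exceeded the progenitors. RPE-like cells held 11 and 7 UMIs, or 2.96 and 3.79 CPM, which placed them lowest but for erythroid-like cells, where no Dusp6 UMI was found in 477 control or 420 mutant cells, which allows up to 0.393 and 0.441 CPM. The erythroid cluster left out held 13 and 8 Dusp6 UMIs, and with it the erythroid level would be 1.58 and 1.13 CPM. Progenitors exceeded RPE-like cells 18.1-fold (10.1–36.4) in the control and 14.3-fold (6.94–35.7) in the mutant. RPE-like cells held UMIs of receptor genes, with Fgfr2 at 69.8 and 50.3 CPM and Fgfr1 at 41.2 and 35.7 CPM, against 0.262 and 0.147 CPM and 0.655 and 1.18 CPM in erythroid-like cells.

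The comparison of genotypes came next. A gene was counted as higher or lower when it had at least 20 UMIs over both libraries in a class and its mutant/control ratio of CPM was at least 1.5 or at most 1/1.5. This is a rule of size and not a test. In progenitor-like cells 0 of the 9 genes passed it, where 3.27% of 14025 genes were higher and 2.37% lower. The log2 ratios ran from -0.12 to 0.18 with a median of 0.04, against -0.02 for all genes tested. The largest was that of Spry2, at 1.14 (1.05–1.22), followed by Fgf15 at 1.11 (1.09–1.12). The intervals of the other 7 genes spanned 1, and that of Dusp6, at 1.01 (0.945–1.08), was narrow. Neither library-to-library nor embryo-to-embryo spread is in these intervals, so differences of this size cannot be assigned to genotype.

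In neuron-like cells 3 of the 9 genes were higher in the mutant and 0 lower, where 3.7% of 13466 genes were higher and 3.24% lower. For Fgf15, with 507 and 1161 UMIs, the ratio was 1.67 (1.51–1.86). Fgf3 had 53 and 114 UMIs, a ratio of 1.57 (1.13–2.22). Etv4 had 6 and 15 UMIs, and its interval of 0.670 to 5.75 spanned 1. By type, Fgf15 had a ratio of 3.04 (2.39–3.91) in retinal ganglion cell-like cells, with 84 and 334 UMIs, and 1.82 (1.40–2.39) in photoreceptor precursor-like cells. Amacrine and horizontal cell-like cells held most of the Fgf15 UMIs of the neurons, 344 and 619, and did not pass, with a ratio of 1.25 (1.10–1.44). Fgf9, Spry1, Spry2, Spry4, Etv5 and Dusp6 did not pass in the neurons together, with ratios from 0.731 to 1.17. By type, Spry2 passed as higher in photoreceptor precursor-like cells, with 15 and 49 UMIs and a ratio of 2.26 (1.25–4.34). Spry1 passed as lower there, with 26 and 25 UMIs and a ratio of 0.665 (0.369–1.20). The share of all genes past the limit in that type is not given here. In the neurons together, Fgf15 fell below the limit with called doublets kept, at a log2 ratio of 0.38 against 0.74. It also did so with the mean of per-cell CPM, at 0.56. Fgf3 did so with doublets kept and under 2 other filters on cells. The summed level of 6 progenitor markers (Sfrp2, Rax, Six6, Dapl1, Hes5 and Sox2) was 594 and 695 CPM in neuron-like cells, and 1 of the 6 was higher. In neuron-like cells with a UMI of Sfrp2, Dapl1 or Hes5 the ratio of Fgf15 was 1.74 (1.55–1.95). In those without one, Fgf15 had 75 and 115 UMIs and a ratio of 1.16 (0.858–1.57), which was below the limit, with an interval that spanned 1 and did not reach the ratio of the whole class. The cells without one were shallower, with medians of 7087 and 7316 UMIs against 10091 and 9416. Of the genes used for the split, Dapl1, at 1.44 (1.34–1.55), and Hes5, at 1.27 (1.17–1.39), had intervals above 1 but did not pass the limit. Sfrp2, at 1.05 (0.939–1.18), had an interval that spanned 1. The split is therefore a description. In the cells without one, Fgf3 had a log2 ratio of -0.50, and 0 of the 9 genes passed.

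In RPE-like cells only 6 of the 9 genes had enough UMIs. Of these, 3 were higher and 1 lower in the mutant, where 5.09% of 10960 genes were higher and 8.58% lower. Fgf15 counted 163 UMIs in control and 203 in mutant cells, or 43.9 CPM (37.4–51.2) and 109.9 CPM (95.3–126), and its ratio was 2.50 (2.03–3.09). With mitochondrial share held to 5% its log2 ratio was 0.60 against 1.32, close to the limit. The study lists Fgf15 among genes higher in mutant RPE, chosen partly on these libraries, so the direction is not independent evidence. Etv5 had 8 and 12 UMIs and a ratio of 3.01 (1.13–8.50). Fgf9 had 26 and 23 UMIs and a ratio of 1.78 (0.969–3.24), and Spry2 had 54 and 17 UMIs and a ratio of 0.632 (0.344–1.11). The intervals of Fgf9 and Spry2 spanned 1, and under the same mitochondrial limit the log2 ratio of Fgf9 was -0.39. Spry1, with a ratio of 1.05 (0.765–1.44), and Fgf3, at 0.927 (0.426–1.90), did not pass. Spry4, Etv4 and Dusp6 had 12, 5 and 18 UMIs over both libraries and were not assessed.

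Few RPE-like cells carried Fgf15. At least 1 UMI was found in 31 of 365 control and 30 of 200 mutant cells, and the 5 richest cells held 71.2% and 73.4% of the UMIs. These 5 cells had medians of 22930 and 26231 UMIs per cell, against 6338.5 and 3475 in the other cells. Their progenitor markers summed to 2578 and 1665 CPM, against 437 and 690.1 CPM in the other RPE-like cells, and their RPE markers to 11868 and 10048 CPM, against 17736 and 17784 CPM. After thinning every cell to 2000 UMIs, an Fgf15 UMI was held by 4.12% (1.99–7.44) of the 243 RPE-like cells left in the control library and 9.09% (4.63–15.7) of the 121 left in the mutant one, with overlapping intervals. The same share in erythroid-like cells was 0.438% and 1.48%.

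Most progenitor markers moved in the same direction as Fgf15 in the RPE-like class. Their sum was 506 and 783 CPM, with 4 of the 6 markers higher, 0 lower and none at 0 UMIs. Rax, at 1.48 (1.13–1.94), and Hes5, at 0.798 (0.582–1.08), did not pass. Sfrp2 held 345 and 526 CPM of the sum, and the other 5 markers summed to 160 and 257 CPM. RPE-like cells were then split by whether they held a UMI of Sfrp2, Dapl1 or Hes5. In the cells with one, 217 control and 119 mutant, Fgf15 had 154 and 198 UMIs and a ratio of 2.59 (2.08–3.21). In the cells without one, 148 and 81, it had 9 and 5 UMIs and a ratio of 1.11 (0.292–3.69). The latter interval includes the ratio of the whole class. The split also sorted cells by depth, with medians of 13555 and 10481 UMIs in cells with one and 1589 and 1170 in cells without, and Sfrp2 and Dapl1 were themselves among the markers higher in the mutant.

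**Figure D3:**
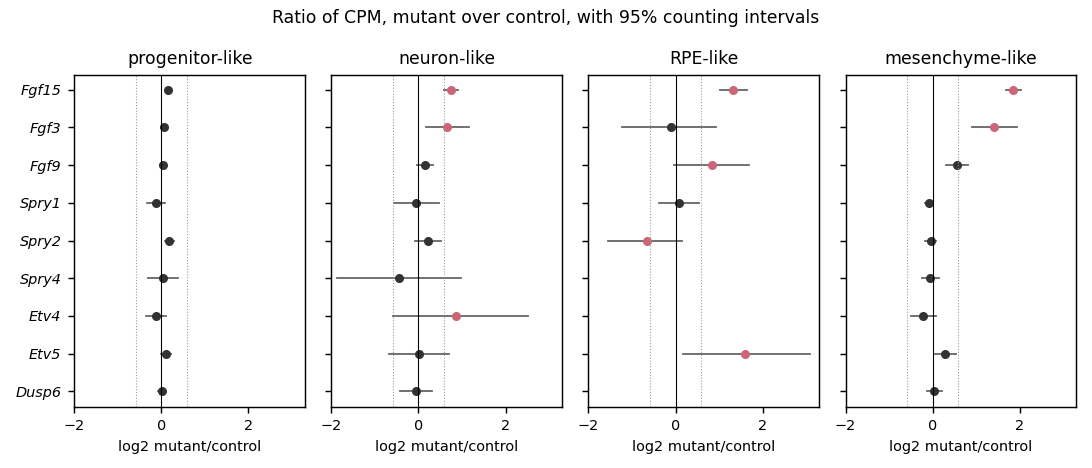
Points give the log2 mutant/control ratio of CPM for the 9 genes in 4 cell classes, and lines give exact 95% intervals for counting error. Dotted lines mark 1.5-fold and red points pass it. Genes with under 20 UMIs are not drawn. All 9 genes lie near 0 in progenitors, and Fgf15 lies to the right of 0 in all 4 panels.

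Mesenchyme-like cells do not descend from the eye field. There 2 of the 9 genes were higher in the mutant and 0 lower, where 5.96% of 14909 genes were higher and 2.63% lower. For Fgf15, with 384 and 1022 UMIs, the ratio was 3.61 (3.21–4.07). For Fgf3, with 50 and 98 UMIs, it was 2.66 (1.87–3.82). With called doublets kept, Fgf15 had a log2 ratio of 0.67 against 1.85, and after thinning Fgf3 had one of -0.11. In cells that had Xist but no Y-linked UMI, the log2 ratio was 1.02 for Fgf15 and 0.076 for Fgf3. Fgf9, with 248 and 270 UMIs and a ratio of 1.48 (1.24–1.76), lay just below the limit. The 6 feedback genes did not pass, with ratios from 0.863 for Etv4 to 1.22 (1.02–1.45) for Etv5. Spry1, which had 2308 and 1594 UMIs, had a ratio of 0.937 (0.878–0.999), and Dusp6 one of 1.03 (0.914–1.16).

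The rise of Fgf15 was seen in each of the 5 mesenchyme-like clusters, which ranged from 4.28 to 18.8 CPM in the control and from 23.8 to 63.5 CPM in the mutant. Progenitor markers rose with it. Their sum was 207 and 349 CPM, with 6 of the 6 markers higher and none at 0 UMIs. Sfrp2 held 173 and 260 CPM of it, and the other 5 markers summed to 34.2 and 89.4 CPM, a ratio of 2.62. Other marker lists moved as well. RPE markers summed to 29.3 and 15.2 CPM, with 6 of the 8 assessed lower, and mesenchyme markers to 16839 and 21888 CPM, with 0 of 11 past the limit. In mesenchyme-like cells without a UMI of Sfrp2, Dapl1 or Hes5, Fgf15 had 42 and 44 UMIs, a ratio of 2.19 (1.40–3.42), against 3.47 (3.07–3.94) in the cells with one. The share of mesenchyme-like cells with an Fgf15 UMI after thinning was 1.35% (0.968–1.84) in the control and 3.71% (2.95–4.60) in the mutant.

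Over the 14 named classes, Fgf15 was higher by the 1.5-fold rule in 10 and lower in 0. Of 3060 genes assessed in all 14, 0.196%, or 6 genes with Fgf15 among them, were higher in 10 or more. That limit was set from the count of Fgf15, so the share is a description and not a test. The median of those 3060 genes was 1 class higher. Fgf3 was higher in 5 of the 11 classes where it was assessed and Fgf9 in 4 of 12, and both were lower in 0. The intervals of Fgf9 in RPE-like cells and of both genes in immune-like cells spanned 1. No share was taken for genes assessed in fewer than 14 classes. The 10 classes with higher Fgf15 included immune-like cells, with 66 and 341 UMIs, and endothelial-like cells, with 102 and 181 UMIs. The 5 richest cells held 50 and 232 of these UMIs in immune-like cells and 81 and 154 in endothelial-like cells. Progenitor markers summed to 1412 and 1628 CPM in those 5 immune-like cells, against 93.3 and 181 CPM in the others. For endothelial-like cells these sums were 1239 and 2599 CPM, against 131 and 122 CPM. Schwann cell precursor-like cells were also among the 10 classes. There 38 control cells had 0 UMIs, which allows up to 3 counts or 4.96 CPM, and 40 mutant cells had 139. In melanocyte-like cells the interval spanned 1, with 35 and 33 UMIs. The 5 richest of the mutant Schwann cell precursor-like cells held 91.4% of the 139. In muscle-like cells Fgf15 had 268 and 184 UMIs, or 70.8 and 61.1 CPM. Erythroid-like cells had a ratio of 1.53 (0.954–2.47), and their progenitor markers summed to 27.1 and 67.5 CPM. With the erythroid cluster left out added back, that ratio was 0.565 (0.481–0.661), so this class would count as lower. Fgf15 per 100 progenitor marker UMIs was 34.7 and 39.8 in progenitor-like cells, 8.69 and 14.0 in RPE-like cells and 4.27 and 9.15 in mesenchyme-like cells. It was also higher in the mutant in immune-like cells, at 20.2 and 47.8, and in endothelial-like cells, at 18.9 and 37.6. The same held for ganglion cell-like cells, at 3.74 and 9.91, and Schwann cell precursor-like cells, at 0 and 43.3. Neurogenic progenitor-like, amacrine and horizontal cell-like and photoreceptor precursor-like cells were higher too. It was lower in the mutant in erythroid-like cells, at 15.9 and 9.80, and in melanocyte-like cells, at 35.4 and 17.8. Surface epithelium-like cells, at 35.2 and 33.1, and muscle-like cells, at 37.8 and 37.4, were also lower. Counted without Sfrp2 it was 48.0 and 50.3 in progenitor-like, 27.4 and 42.7 in RPE-like and 25.9 and 35.7 in mesenchyme-like cells. With the free RNA level of erythroid-like cells subtracted per UMI, the log2 ratio of Fgf15 was 1.38 in RPE-like and 2.49 in mesenchyme-like cells. Both values rest on leaving out that erythroid cluster. With it the erythroid level, 59.1 and 33.4 CPM, would exceed the control levels of both classes and the mutant level of mesenchyme. Free RNA and captured progenitors were not separated cell by cell from transcription within the cells of a class.

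**Figure D4:**
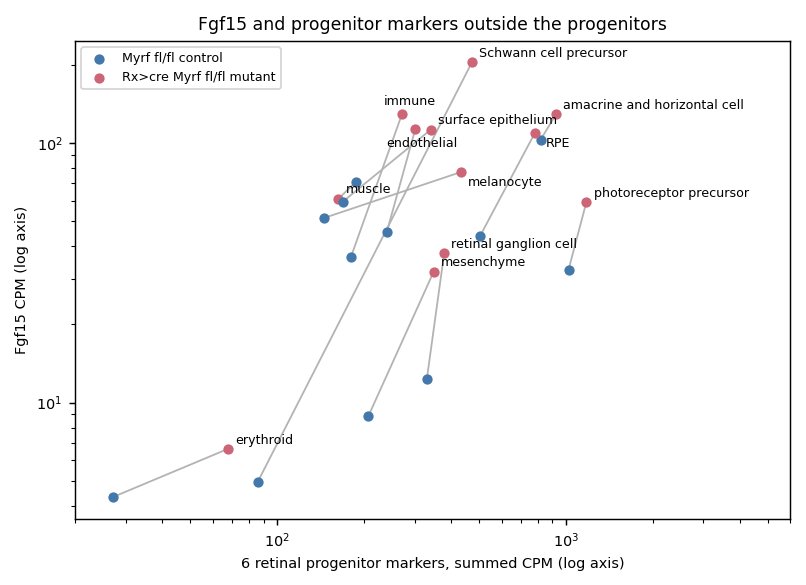
Each line joins the control (blue) and mutant (red) library of one cell class outside the progenitors. The x axis is the summed CPM of 6 progenitor markers and the y axis Fgf15 CPM, both on log axes, and control Schwann cell precursor-like cells, at 0 UMIs, are drawn at 3 counts. Lines run up and to the right in all classes drawn except muscle, where both values are lower in the mutant.

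Surface epithelium-like cells, 86 in the control and 111 in the mutant, had 4 feedback genes past 1.5-fold higher in the mutant and 1 lower, where 9.32% of 9882 genes were higher and 8.01% lower. Dusp6 had 31 and 99 UMIs, a ratio of 2.49 (1.65–3.86), Etv4 11 and 46, a ratio of 3.27 (1.67–6.99), Etv5 16 and 46, a ratio of 2.25 (1.25–4.25), and Spry2 32 and 69, a ratio of 1.68 (1.09–2.65). Spry1 was the lower one, with 38 and 30 UMIs and a ratio of 0.617 (0.369–1.02). The 5 richest mutant cells held 69.7% of the Dusp6 and 82.6% of the Etv4 UMIs. Progenitor markers summed to 169 and 341 CPM in this class, with 4 of the 6 higher, and Fgf15 had a ratio of 1.90 (1.48–2.46). Their part in the result was not tested.

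Whether the genes appeared in the same progenitor cells was examined after thinning each cell to 2000 UMIs, in 2694 control and 3851 mutant cells. The number of cells with both genes was set against the number expected if they were independent within each cluster. Cells rich in Fgf15 (at least 3 UMIs in control cells or 4 in mutant cells) also held Fgf3 in 430 and 540 cells, or 1.19 times (1.08–1.31) and 1.20 times (1.10–1.30) the expected number. Spry2 and Etv5 were found together in 20 and 44 cells, 1.55 times (0.946–2.39) and 1.73 times (1.26–2.33) the expected number. The other 14 pairs of feedback genes had intervals that spanned 1 in both libraries. Fgf15 with each feedback gene gave between 0.826 and 1.10 times the expected number in the control and between 0.912 and 1.23 times in the mutant, all with intervals spanning 1. At this depth no relation between Fgf15 and the feedback genes from cell to cell was detectable.

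The wider pathway was followed through 60 further genes. In progenitor-like cells 44 of them had enough UMIs. Of these, 1 was higher in the mutant and 1 lower, where 3.27% and 2.37% of all genes were. The higher one was the immediate early gene Fos (24 and 92 UMIs) and the lower one Egr1 (21 and 19 UMIs). The receptor gene Fgfr1 stood at 38.9 and 36.1 CPM there. In neuron-like cells 1 of 43 was higher, the cyclin gene Ccnd1 at 96.2 and 190.5 CPM, and 1 lower, Egr1. The shares over all genes in that class were 3.7% and 3.24%. The 15 kinases and adaptors of the cascade, all with enough UMIs, stayed under 1.5-fold in all 4 classes.

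In RPE-like cells 3 of 34 pathway genes were higher and 1 lower, where 5.09% and 8.58% of all genes were. For Ccnd1, with 551 and 592 UMIs or 148 and 320.5 CPM, the ratio was 2.16 (1.92–2.43). Ccnd1 stood at 3715 and 3827 CPM in progenitor-like cells. Fgf14, with 10 and 11 UMIs, and Ier3, with 24 and 18, had intervals spanning 1. Dusp4, another ERK phosphatase, had 40 and 9 UMIs and a ratio of 0.452 (0.193–0.946). Fgfr2 did not pass, at 0.721 (0.563–0.918).

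In mesenchyme-like cells 5 of 51 pathway genes were higher and 1 lower, where, as given above, 5.96% and 2.63% of all genes were. Fgf10, a ligand of mesenchyme that acts on epithelium, had 85 and 180 UMIs and a ratio of 2.87 (2.21–3.76). The receptor Fgfr3 had 62 and 102 UMIs and a ratio of 2.23 (1.61–3.11). Fgf1 (17 and 19 UMIs, with an interval spanning 1), Fgf21 (73 and 81) and Dusp4 (25 and 35) were the others. Fgf7, another mesenchymal ligand, was lower, with 513 and 247 UMIs and a ratio of 0.653 (0.559–0.762). The ligand gene Fgf18 stood at 31.8 and 28.4 CPM.

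Dissociation can induce immediate early genes, which are also ERK targets. A list of 10 such genes summed to 220 and 229 CPM in progenitor-like cells, 549 and 561 CPM in neuron-like cells, 91.9 and 80.1 CPM in RPE-like cells and 351 and 315 CPM in mesenchyme-like cells. Of these 10 genes, 2 were higher and 1 lower in mutant progenitors, where 3.27% and 2.37% of all genes were. In RPE-like cells 5 had enough UMIs, and 1 was higher and 0 lower, where 5.09% and 8.58% of all genes were.

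The genes whose level over 13 classes of the control was most like that of Fgf15 included Fgf3, Sox2, Fzd5, Cox4i2 and Cp, with Pearson r from 0.91 to 0.90, and from 0.88 to 0.93 in the mutant. For Fgf3 they were Dio3, Espn, Cp, Cox4i2 and Nr2e1, with r from 0.95 to 0.94, and from 0.92 to 0.96 in the mutant. For Etv5 they were Gm26669, Vrk1, Ung, Lrrfip1 and Mcm5, with r from 0.82 to 0.80, and from 0.66 to 0.88 in the mutant. For Dusp6 they were Lrrfip1, Tagln2, Swap70, Prex1 and Nfkb1, with r from 0.94 to 0.86, and from 0.81 to 0.91 in the mutant.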

How the data were processed

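For each 10x 3′ library the authors deposited unnormalized UMI counts by gene and barcode. The submitters' processing notes name Cell Ranger 7.1.0, Seurat 4.1.1 and mm10, while the headers of the matrices give 3.1.0. Following the study, cells with under 200 genes or over 15% mitochondrial UMIs were removed. The study also names a limit of 2000 UMIs per cell, which 79.1% of control and 80.6% of mutant barcodes exceed, so that limit served as an alternative only. Scrublet in scanpy 1.11.5 removed 424 and 442 doublets, or 3.55% and 3.40% of those tested against 9.55% and 10.4% expected, so doublets remained. Counts were scaled to 10000 per cell, log-transformed and clustered without integration on 1880 genes, with 30 components, 15 neighbours and Leiden resolution 1, giving 33 clusters, of which 28 were named from markers and the other 5 held 13.8% of control and 13.3% of mutant cells. The members, pathway genes and naming markers were not among the clustering genes. The members, lists and call rule were chosen with earlier results of these data known.

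UMIs were summed per class and library and expressed per 1e+06. Levels carry exact Poisson, shares exact Clopper-Pearson and ratios exact conditional binomial 95% intervals, for counting error only, and they assume independent UMIs. A count of 0 was set to 3 for a ratio. Cells were thinned to 2000 UMIs where shares were compared, and shallower cells left out. The pathway genes named were all those past 1.5-fold, and those of the highest CPM in their role. There were 18 alternatives. One marker used in naming classes is not reported here and was left out of the marker sums and of the genes most like a member. The ratio calculation was tested on simulated data. Gene positions are from GENCODE vM21.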

Additional observations from a re-analysis of the deposited data

How the results depend on the processing

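No paired analysis was possible because there was 1 library per genotype and no test. The count of members past 1.5-fold held to within 1.5 times in 54 of 67 recalculations. In progenitor-like cells it was 1 (Dusp6, lower) with cells over 2000 UMIs removed, which left only shallow cells. In neuron-like cells it was 1 with mitochondrial share at most 5%, with called doublets kept and with cells over 20000 UMIs removed, and 0 in cells without a UMI of Sfrp2, Dapl1 or Hes5. In RPE-like cells it was 2 with mitochondrial share at most 5%, with cells over 20000 UMIs removed and after thinning. It was also 2 with at least 50 UMIs and without the 5 cells richest in the gene. Fgf15 was among the 2 each time, and Etv5 never was. In mesenchyme-like cells it was 1, Fgf15, with called doublets kept, in cells that had Xist but no Y-linked UMI, and in cells without a UMI of Sfrp2, Dapl1 or Hes5.

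Of 517 recalculated mutant/control ratios 46 changed sign, 42 of them for genes that were under 1.5-fold as reported and 4 for genes past it. Of the latter, Etv4 in neuron-like cells gave a log2 ratio of -0.74 with free RNA subtracted per UMI, Fgf3 in neuron-like cells -0.50 without a UMI of Sfrp2, Dapl1 or Hes5, Fgf9 in RPE-like cells -0.39 with mitochondrial share at most 5% and Fgf3 in mesenchyme-like cells -0.11 after thinning. With cells over 2000 UMIs removed, the mutant progenitor/mesenchyme log2 ratio was -0.66 for Spry2, -0.30 for Etv5 and -2.36 for Dusp6. The progenitor/neuron log2 ratio of Dusp6 was -0.21. Few cells were left for these values, as 2131 of 2151 mutant mesenchyme-like and 1606 of 1625 mutant neuron-like cells held at least 2000 UMIs. The cause of the changed signs was not tested. In these alternatives Fgf15 was higher in the mutant wherever it gave a value in the RPE-like, mesenchyme-like and neuron-like classes, with log2 ratios from 0.60 to 1.83 in RPE-like, 0.67 to 2.59 in mesenchyme-like and 0.21 to 1.05 in neuron-like cells. Alternatives that left under 20 UMIs gave no value, among them RPE-like cells without the 3 progenitor genes and all but the progenitors under the limit of 2000 UMIs. The split by Sfrp2, Dapl1 and Hes5 replaced a planned split that is not reported here. This split, subtraction of free RNA per cell, removal of the 5 richest cells and removal of shallow progenitor clusters were chosen after seeing the data.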

Other observations

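Feedback genes were also high in cells outside the comparisons above. An unnamed cluster of 51 control and 55 mutant cells, led by Cartpt, Pax2, Zic1 and Wnt8b, had more Spry1 in either library than any other of the 33 clusters, at 155 CPM (124–191) and 119 CPM (94.7–148), control first. It also held Fgf8, at 117 and 72.1 CPM. Its Fgf15 was 119 CPM (91.7–151) and 312 CPM (272–357), and its Dusp6 48.5 CPM (32.0–70.6) and 22.1 CPM (12.4–36.4).

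Melanocyte-like cells, 50 and 30, had Dusp6 at 104 CPM (81.6–132) and 68.1 CPM (45.6–97.8).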
